A study of Mus musculus with 16 samples.

Results

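The vesicle miRNAs described here are mmu-miR-205-5p, mmu-miR-375-3p, mmu-miR-203-3p and mmu-miR-31-5p, 4 of the 1907 mature mouse miRNAs in the deposited table. They were chosen by name, as miRNAs linked to basal, secretory and neuroendocrine airway epithelium, with earlier results of these data known. Extracellular vesicles were collected from bronchoalveolar lavage fluid of C57BL/6 mice, and their small RNA was sequenced. There were 4 groups of 4 libraries: wild type without lung injury (labelled normal and, by the protocol, given PBS), Sdc1-/- without injury, wild type injured with bleomycin, and Sdc1-/- injured with bleomycin, the injured animals being recorded at 21 days. Sdc1 encodes syndecan-1, a heparan sulfate proteoglycan of the epithelial surface, and bleomycin is a drug used to produce lung fibrosis in mice. The ages and sexes of the mice and the design of the Sdc1 allele were not given in the sources used here. Sdc1 is a protein-coding gene, so a table of miRNAs cannot check the knockout label.

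A miRNA is cut from a hairpin transcript, and the bases of its seed, near the 5′ end, choose the messages it represses. miR-205 marks basal cells of stratified and airway epithelium and represses Zeb1 and Zeb2, transcription factors that switch off epithelial genes. miR-375 is best known from pancreatic islets and other neuroendocrine cells, and in rat it was described in alveolar type II cells. miR-203 limits the stem-like state of skin epithelium by repressing p63, and miR-31 is abundant in proliferating keratinocytes and rises in several injured epithelia. None of these miRNAs belongs to a single cell type, and the labels do not give the cells that released the vesicles.

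The mature strands are shown because their seeds, bases 2 to 8 in capitals, set each miRNA apart from the others. Sequences and positions are from RefSeq on GRCm38.p6, and miR-375-3p is named only.
mmu-miR-205-5p, chr1:193507503-193507524, minus strand: uCCUUCAUuccaccggagucug
mmu-miR-203-3p, chr12:112130927-112130948, plus strand: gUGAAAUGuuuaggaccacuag
mmu-miR-31-5p, chr4:88910614-88910635, minus strand: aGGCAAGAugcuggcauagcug
The 3 seeds differ from each other, and 0 others of the 1679 mature names in that RefSeq table carry any of them, so none of the 3 has a seed relative there. The Mir203 hairpin is shown because both of its arms were counted and their balance is described below, with the 5p arm first and the 3p arm second in capitals.
Mir203 hairpin, chr12:112130880-112130955, plus strand: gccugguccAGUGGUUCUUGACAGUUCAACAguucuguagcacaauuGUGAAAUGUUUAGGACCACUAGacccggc

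The 4 hairpins lie apart in the genome and have different surroundings. Mir205, at chr1:193507463-193507530, lies in an exon of a long non-coding RNA on the same strand, Mir205hg in RefSeq and 4631405K08Rik in GENCODE. Mir375, at chr1:74900658-74900721, lies between the lens crystallin gene Cryba2, 1816 bases away, and Cfap65, a cilia and flagella gene 1350 bases away. Mir203 lies between Aspg and Kif26a and is overlapped by the miRNA gene Gm51289. Whether reads were counted by strand was not given, so reads of these overlapping hairpins may not have been kept apart. The Mir31 hairpin, at chr4:88910557-88910662, lies in an exon of the long intergenic RNA AL805899.1, on the same strand.

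Values are CPM, a miRNA's reads per 1000000 miRNA reads of its library, so each is a share and says nothing of the total in the lavage. A lower share can come from fewer vesicles of one cell type, from less of the miRNA per vesicle or from more of other miRNAs. These cannot be told apart. Libraries held 1094908 to 12837837 reads, and all 4 miRNAs were counted in all 16 libraries, with 29 to 505 reads for miR-31-5p and 361 or more for each of the others. Together the 4 made up 0.377 to 2.73% of the reads in normal wild type, 0.135 to 1.05% in normal Sdc1-/-, 0.0797 to 0.754% in bleomycin wild type and 0.0749 to 0.224% in bleomycin Sdc1-/-. The labels do not say that libraries came from separate mice, so p-values measure only the spread between these libraries, which may be technical.

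Other epithelial miRNAs were abundant in the same vesicles. The summed CPM of the 5 miR-200 family members, which hold the epithelial state, was 56261 to 87913 in normal wild type and at least 17045 in every other library. The 6 miR-34 and miR-449 miRNAs of ciliated cells summed to between 2252 and 24724 CPM over the 16 libraries. Of 5 miRNAs listed for neuroendocrine and neuronal cells, miR-124-3p had no read in any library, and the list summed to 246 to 1061 CPM. Markers of other sources were present too. The 5 leukocyte miRNAs summed to 128 to 833 CPM, the 3 red cell miRNAs to 55.9 to 6108 CPM and the 5 mesenchymal miRNAs to 21553 to 142493 CPM.

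miR-205-5p was high in uninjured lavage and fell after bleomycin in wild type. Its CPM in normal libraries 1 to 4 was 7723, 5743, 3365 and 1328 in wild type and 916, 2227, 364 and 1053 in Sdc1-/-. After bleomycin it was 80.0, 373, 2476 and 148 in wild type and 334, 62.0, 390 and 196 in Sdc1-/-. Within each genotype the normal libraries lay mostly above the injured ones, and they overlapped through library 3 of bleomycin wild type and library 3 of normal Sdc1-/-.

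The group means were 4540 ± 2786 CPM in normal wild type, 1140 ± 784 in normal Sdc1-/-, 769 ± 1145 in bleomycin wild type and 246 ± 147 in bleomycin Sdc1-/- (SD, n = 4 each). The highest library was 124.5-fold above the lowest, which was the widest range of the 4 miRNAs. The mean of bleomycin wild type rested on library 3, since the other three were at 373 or less.

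miR-375-3p had the highest mean of the 4 in every group but bleomycin Sdc1-/-, where that of miR-203-3p was higher, and it reached rank 15 among all miRNAs in a normal wild-type library. Its CPM in normal libraries 1 to 4 was 19098, 12814, 2829 and 2182 in wild type and 924, 7943, 622 and 982 in Sdc1-/-. After bleomycin it was 531, 591, 3947 and 205 in wild type and 796, 177, 971 and 498 in Sdc1-/-. Libraries 1 and 2 of normal wild type and library 2 of normal Sdc1-/- stood well above the other 13, and both genotypes' normal and injured libraries overlapped.

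The means were 9231 ± 8183 CPM in normal wild type, 2617 ± 3554 in normal Sdc1-/-, 1318 ± 1761 in bleomycin wild type and 610 ± 349 in bleomycin Sdc1-/- (SD, n = 4 each). The SD exceeded the mean in both middle groups, and in each of them a single library carried most of it.

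miR-203-3p went the other way and was higher after bleomycin. Its CPM in normal libraries 1 to 4 was 403, 359, 333 and 240 in wild type and 330, 279, 321 and 261 in Sdc1-/-. After bleomycin it was 265, 674, 1078 and 428.6 in wild type and 812, 487, 844 and 622 in Sdc1-/-. The 4 injured Sdc1-/- libraries all lay above the 4 normal Sdc1-/- libraries, while in wild type library 1 after bleomycin lay within the normal range. How many other miRNAs separated in this way was not counted.

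The means of miR-203-3p were 334 ± 68.5 CPM in normal wild type, 298 ± 32.9 in normal Sdc1-/-, 611 ± 354 in bleomycin wild type and 691 ± 168 in bleomycin Sdc1-/- (SD, n = 4 each). Over all libraries its highest value was 4.48-fold the lowest.

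miR-31-5p was the lowest of the 4 and moved least. Its CPM in normal libraries 1 to 4 was 26.5, 25.4, 24.5 and 22.6 in wild type and 25.5, 26.9, 39.3 and 35.0 in Sdc1-/-. After bleomycin it was 23.9, 18.9, 34.5 and 15.5 in wild type and 29.3, 23.3, 37.3 and 15.1 in Sdc1-/-. All 4 groups overlapped, and the highest library was 2.60-fold the lowest.

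**Figure D1:**
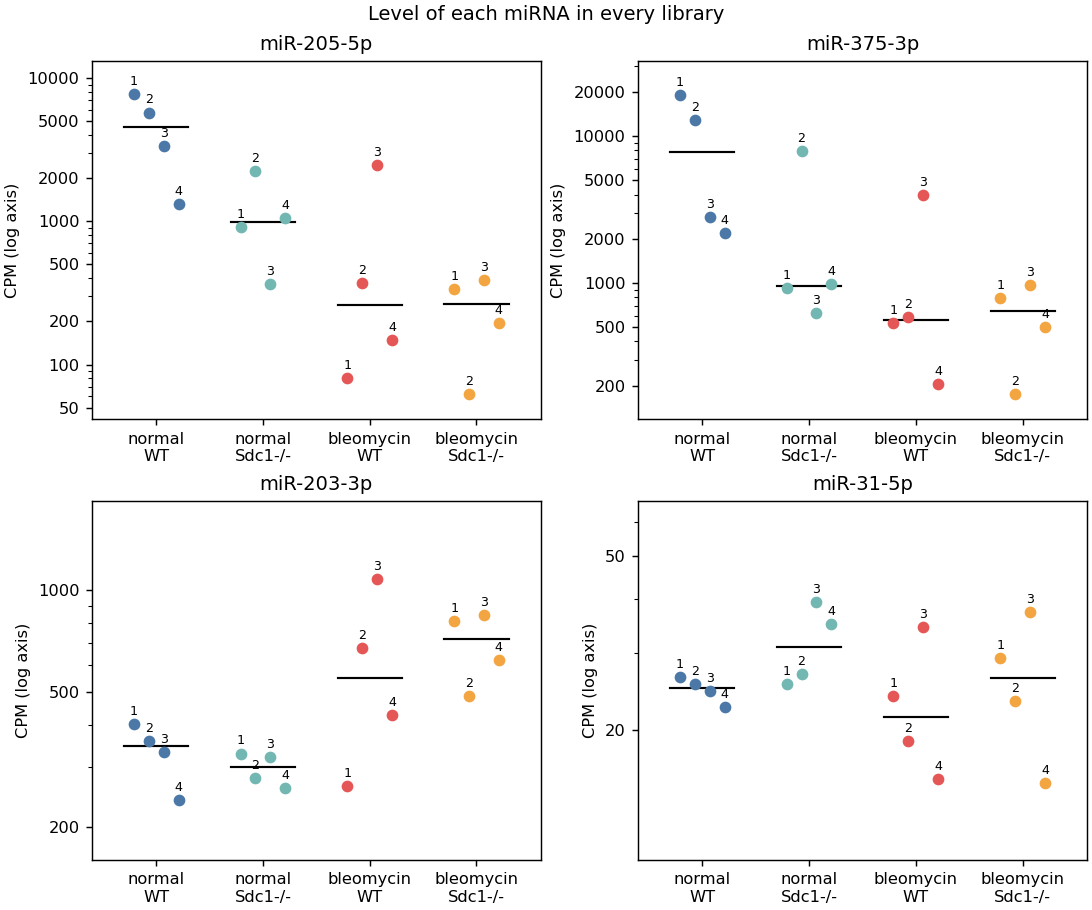
CPM of each miRNA on a log axis, 1 point per library with its number, by group, with a bar at the group median. miR-205-5p and miR-375-3p span 124.5-fold and 108-fold with the highest points in normal wild type, miR-203-3p sits higher after bleomycin, and miR-31-5p stays between 15.1 and 39.3 CPM.

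Bleomycin against normal in wild type asked how injury changed the vesicle miRNAs with syndecan-1 present. In limma on log2(CPM + 5) over 325 tested miRNAs, 112 passed a Benjamini-Hochberg adjusted p of 0.05, which is 34.5%, and 14.5% passed as lower and 20% as higher. Of the 4 miRNAs, miR-205-5p and miR-375-3p fell, and the other two did not pass. miR-205-5p fell by 3.50 on the log2 scale (SE 0.87, 95% interval -5.33 to -1.67, limma adjusted p = 0.00531), and the change was the second lowest of the 325. miR-375-3p fell by 3.12 (SE 0.93, -5.07 to -1.18, limma adjusted p = 0.0172), the fifth lowest.

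The call for miR-375-3p rested on few libraries. Without normal wild-type library 1 its limma adjusted p was 0.0599, without library 2 it was 0.053, and without bleomycin wild-type library 4 it was 0.0689. miR-205-5p passed with any single library left out, and its difference was -4.47 without bleomycin wild-type library 3.

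The difference of miR-203-3p in wild type was 0.70 (SE 0.40, -0.14 to 1.55, limma adjusted p = 0.192), and 3 of 4 injured libraries lay above all 4 normal ones. It passed in edgeR's quasi-likelihood test on the recovered reads (0.77, adjusted p = 0.0267) and in DESeq2 (0.73, adjusted p = 0.00181). With 1 library left out it passed in limma in 1 of 16 fits, that without bleomycin wild-type library 1 (1.04, adjusted p = 0.0435). That library was the one inside the normal range, so this pass is no independent support. Over the 16 fits the difference went down to 0.37 and the limma adjusted p up to 0.46. The difference of miR-31-5p was -0.12 (SE 0.30, -0.75 to 0.50, limma adjusted p = 0.772).

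Bleomycin against normal in Sdc1-/- asked the same with syndecan-1 absent. Here 76 of 325 miRNAs passed, which is 23.4%, and 14.8% passed as higher and 8.62% as lower. Of the 4 miRNAs only miR-203-3p passed, and it rose by 1.17 (SE 0.40, 0.33 to 2.02, limma adjusted p = 0.0413). The call lay near the threshold: its limma adjusted p ran from 0.0528 to 0.115 in the 9 of 16 fits without 1 library in which it was lost, namely without normal wild-type library 2 or 3, any normal Sdc1-/- library, or bleomycin Sdc1-/- library 1, 3 or 4. The difference itself stayed between 1.07 and 1.33.

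miR-205-5p differed by -2.20 in Sdc1-/- (-4.03 to -0.37, limma adjusted p = 0.0829) and did not pass. It passed without bleomycin wild-type library 3 (limma adjusted p = 0.0209), which is not part of this contrast but adds to the shared estimate of the spread, and in the fit of these 8 libraries alone (limma adjusted p = 0.0247). In edgeR the difference was -2.30 (adjusted p = 0.0308). miR-375-3p differed by -1.50 (-3.45 to 0.45, limma adjusted p = 0.258) and by -0.69 without normal Sdc1-/- library 2. miR-31-5p differed by -0.27 (-0.89 to 0.36, limma adjusted p = 0.56).

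**Figure D2:**
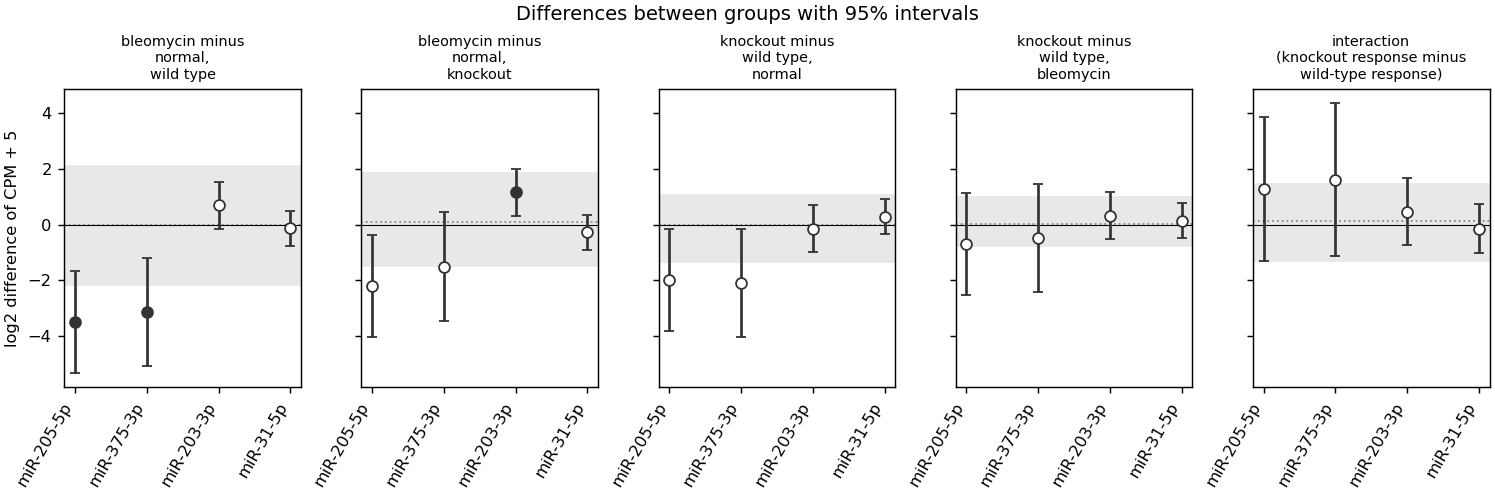
log2 difference of each of the 4 miRNAs with its 95% interval from limma in the 5 comparisons, filled where the adjusted p is under 0.05, over a grey band from the 5% to the 95% quantile of all 325 tested miRNAs and a dotted line at their median. The filled points are miR-205-5p and miR-375-3p in wild type, below 0, and miR-203-3p in Sdc1-/-, above 0.

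Sdc1-/- against wild type without injury asked what the loss of syndecan-1 alone did. In limma 0 of 325 miRNAs passed, which is 0%, while 58 had an unadjusted p under 0.05; edgeR called 0 and DESeq2 8. miR-375-3p and miR-205-5p were nevertheless at the low end of all tested miRNAs. miR-375-3p differed by -2.09 (-4.04 to -0.15, unadjusted p = 0.0364, limma adjusted p = 0.266), the lowest of the 325, and miR-205-5p by -1.99 (-3.82 to -0.16, unadjusted p = 0.0347, limma adjusted p = 0.266), the third lowest.

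In the levels above, 3 of 4 Sdc1-/- libraries were below all 4 wild-type libraries for both miRNAs, and library 2 was the exception. Without that library miR-375-3p passed, at -2.91 (limma adjusted p = 0.034), in a fit in which 63 of 322 miRNAs passed. It was the only pass of miR-375-3p among the 16 fits without 1 library, where its limma adjusted p reached 0.649. The library left out was the exception in these same values, so the pass is no independent support. miR-203-3p differed by -0.14 (limma adjusted p = 0.872) and miR-31-5p by 0.29 (limma adjusted p = 0.583).

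After bleomycin, 2 of 325 miRNAs differed between Sdc1-/- and wild type, which is 0.615%, and neither was among the 4. The differences were -0.47 for miR-375-3p (limma adjusted p = 0.914), -0.69 for miR-205-5p (0.879), 0.33 for miR-203-3p (0.877) and 0.14 for miR-31-5p (0.924). Without bleomycin wild-type library 3, the one high in miR-205-5p and miR-375-3p, the values were 0.28 for miR-205-5p and 0.35 for miR-375-3p.

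The interaction, the bleomycin difference in Sdc1-/- minus that in wild type, tested whether the genotypes responded differently. In limma 0 of 325 miRNAs passed, with 24 at an unadjusted p under 0.05, 0 in edgeR and 2 in DESeq2. It was 1.62 for miR-375-3p (-1.13 to 4.37, limma adjusted p = 0.823) and 1.30 for miR-205-5p (-1.29 to 3.89, limma adjusted p = 0.859). It was 0.47 for miR-203-3p (limma adjusted p = 0.902) and -0.14 for miR-31-5p (limma adjusted p = 0.929). The fall of miR-205-5p and miR-375-3p past the threshold in wild type and not in Sdc1-/- was therefore not shown to be a difference between genotypes, and both intervals spanned 0 widely.

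The levels of miR-205-5p and miR-375-3p moved with the number of reads in a library. Among normal libraries, wild-type 1 and 2 and Sdc1-/- 2 had 1094908 to 2753095 reads, and the other 5 had 8663688 to 12837837. On the log2 scale the 3 with fewest reads were higher by 3.28 for miR-375-3p and by 2.07 for miR-205-5p, against 0.22 for miR-203-3p and -0.11 for miR-31-5p. After bleomycin the 3 with fewest reads, 2202990 to 3450027, exceeded the other 5 by 2.21 in miR-205-5p, by 1.63 in miR-375-3p and by 0.76 in miR-203-3p. Library 3 of bleomycin wild type carried much of this, and without it the excess was 1.28 in miR-205-5p and 0.79 in miR-375-3p. In both conditions wild type prevailed among the libraries with fewest reads and Sdc1-/- among the others. These excesses therefore mix depth with genotype. Within each genotype, the normal libraries with fewest reads were still the highest in miR-205-5p and miR-375-3p.

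The bleomycin difference kept its direction for those 3 miRNAs on both sides of this split. The split did not match depth between conditions. On the side with most reads, normal libraries had 8663688 to 12837837 reads and bleomycin libraries 4341187 to 7802229, without overlap. Among libraries with fewest reads the median of miR-205-5p was 5743 CPM in normal and 373 after bleomycin, and among those with most reads it was 1053 and 148. The mean log2 differences were -2.76 (-3.69 without bleomycin wild-type library 3) and -2.90. For miR-375-3p the medians were 12814 and 796, then 982 and 498, with differences of -3.34 (-4.18 without that library) and -1.69. The medians of miR-203-3p were 359 and 812, then 321 and 487, with differences of 1.28 and 0.73.

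With log2 reads as a covariate, limma gave miR-205-5p -3.55 in wild type (adjusted p = 0.000142) and -2.96 in Sdc1-/- (adjusted p = 0.00179). For miR-375-3p it gave -3.19 in wild type (adjusted p = 2.03e-05) and -2.53 in Sdc1-/- (adjusted p = 0.000526). No normal library had between 2753095 and 8663688 reads, so this fit carried its depth slope across that gap. The difference between genotypes without injury shrank to -0.64 for miR-375-3p and -0.91 for miR-205-5p, both with limma adjusted p = 0.884. Without the 3 normal libraries with fewest reads, the wild-type differences were -2.67 for miR-205-5p (limma adjusted p = 0.0892) and -1.79 for miR-375-3p (limma adjusted p = 0.158), and that of miR-203-3p in Sdc1-/- was 1.15 (limma adjusted p = 0.0757). That fit kept only libraries 3 and 4 of normal wild type, so depth and the smaller number of libraries cannot be told apart in it.

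**Figure D3:**
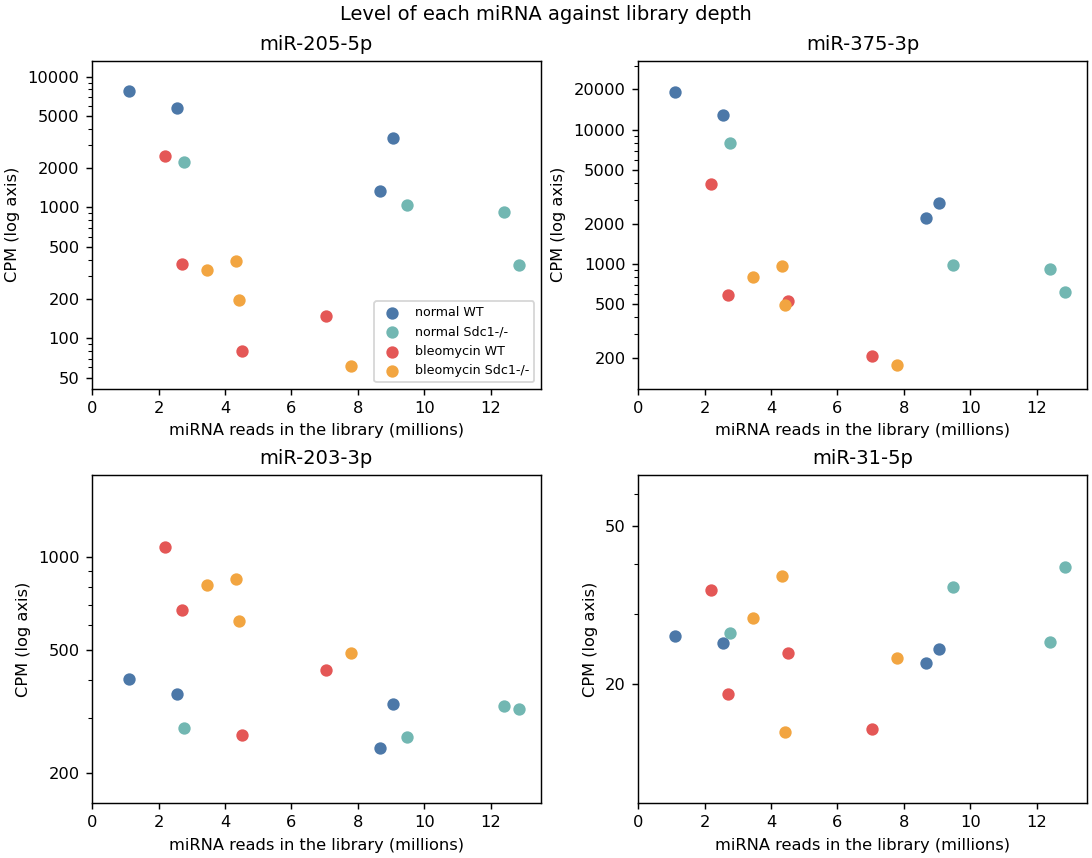
CPM of each miRNA on a log axis against miRNA reads per library on a linear axis, 1 point per library, coloured by group. In both conditions the library with the fewest reads has the highest miR-205-5p and miR-375-3p. No normal library lies between 2753095 and 8663688 reads, where 6 of the 8 bleomycin libraries lie.

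A second feature of the libraries was miR-21a-5p, which took 1.91 to 6.12% of reads in normal wild type and 16.1 to 34.8% after bleomycin in wild type. With miR-21a-5p taken out of the total, the median difference of all tested miRNAs moved from -0.00 to 0.34 in wild type and from 0.11 to 0.43 in Sdc1-/-, and calls in wild type went from 65 higher and 47 lower to 89 higher and 34 lower. miR-203-3p in wild type was then 1.07 (limma adjusted p = 0.0314). miR-31-5p turned from -0.12 to 0.18 in wild type and from -0.27 to 0.061 in Sdc1-/-, so its direction was not fixed.

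A ratio of CPM within a library does not depend on how that library was scaled, although the constant added before taking logs brings back a small dependence for low miRNAs. Each of the 6 pairs was compared between bleomycin and normal by a two-sided exact permutation test, with condition permuted within genotype over 4900 arrangements, 5 CPM added to each miRNA, and the smallest possible p 0.000408. The ratio of miR-205-5p to miR-203-3p was 5.52 to 19.2 in normal wild type and 1.13 to 7.97 in normal Sdc1-/-. After bleomycin it was 0.302 to 2.30 and 0.127 to 0.462. Within each genotype the conditions did not overlap, and the log2 ratio was lower by 3.79 (difference -3.79, exact permutation p = 0.000408, adjusted over 6 pairs 0.00122).

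The ratio of miR-375-3p to miR-203-3p behaved alike, at 8.49 to 47.4 and 1.94 to 28.4 in normal wild type and Sdc1-/-, against 0.478 to 3.66 and 0.362 to 1.15 after bleomycin. Its log2 difference was -3.25 (exact permutation p = 0.000408, adjusted 0.00122), again without overlap within a genotype. Thus miR-203-3p was the least abundant of the 3 in all 8 normal libraries, and it exceeded miR-205-5p in 7 of 8 libraries after bleomycin. How many pairs of other miRNAs had ratios without overlap within a genotype was not counted.

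Against miR-31-5p, the log2 ratio changed by -2.66 for miR-205-5p (exact permutation p = 0.00327, adjusted 0.0049), by -2.12 for miR-375-3p (exact permutation p = 0.0159, adjusted 0.0191) and by 1.13 for miR-203-3p (exact permutation p = 0.00163, adjusted 0.00327). Without the 3 normal libraries with fewest reads, the ratio of miR-375-3p to miR-31-5p changed by -1.05 (exact permutation, adjusted p = 0.156). The ratio of miR-205-5p to miR-375-3p changed by -0.54 (exact permutation p = 0.162), and by -0.99 without those 3 libraries (exact permutation, adjusted p = 0.0389).

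**Figure D4:**
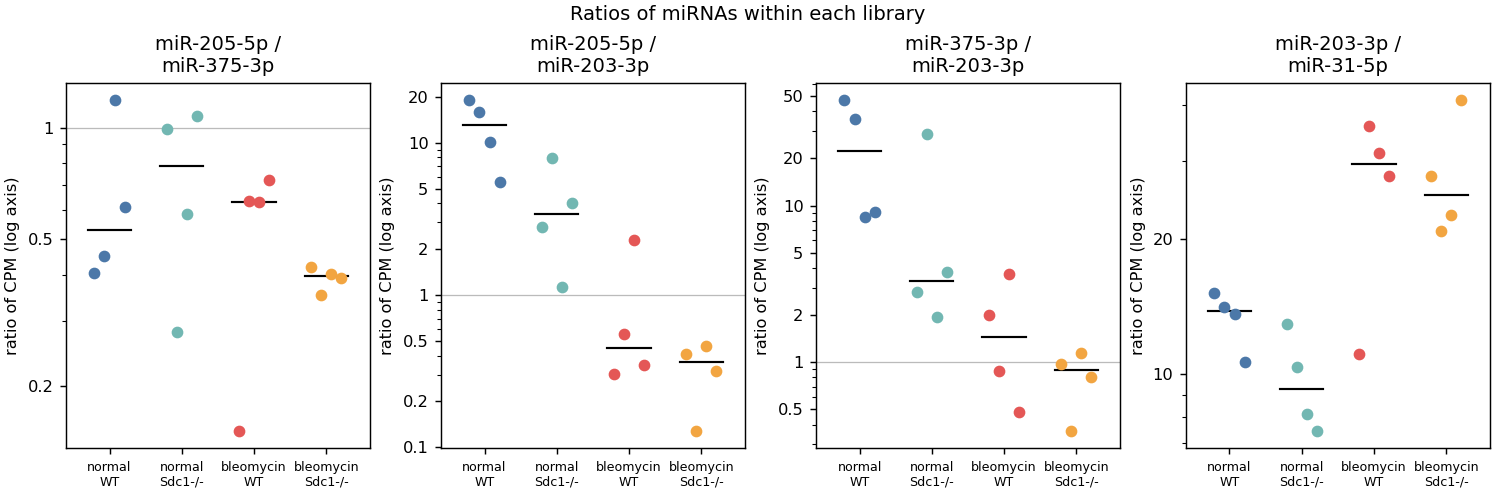
Ratio of CPM between named pairs of miRNAs within each library, on log axes, 1 point per library, with a bar at the group median. The ratios of miR-205-5p and miR-375-3p to miR-203-3p drop after bleomycin, from 5.52 to 19.2 in normal wild type to 0.302 to 2.30 for the former, and that of miR-203-3p to miR-31-5p rises.

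Each hairpin gives a main and a minor arm, and the minor arms were counted as separate rows. The minor arm miR-203-5p took a larger share of the Mir203 hairpin's reads after bleomycin. In normal libraries 1 to 4 the share was 0, 0.326, 0.297 and 0.287% in wild type and 0.414, 0.517, 0.218 and 0.242% in Sdc1-/-. After bleomycin it was 0.665, 0.708, 0.669 and 0.918% in wild type and 0.885, 1.07, 0.812 and 0.8291% in Sdc1-/-. All 8 injured libraries lay above all 8 normal ones. How many hairpins outside the members' own separated in this way was not counted.

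The share was higher by 0.531 percentage points after bleomycin, in a comparison chosen after its values were seen (two-sided exact permutation p = 0.000408, adjusted over 6 comparisons 0.00245). The p-value therefore describes that separation and is no independent test of it. The share was still higher without the 3 normal libraries with fewest reads (exact permutation, adjusted p = 0.0114). The shares rest on 0 to 41 reads of miR-203-5p per library, and amplified reads are not independent molecules. Between genotypes the share differed by 0.139 points (exact permutation p = 0.0498, adjusted 0.132).

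No difference passed for the other minor arms. miR-31-3p took 8.45 to 16.9% of its hairpin's reads in normal wild type, 10.8 to 22.0% in normal Sdc1-/-, 5.0 to 15.5% in bleomycin wild type and 8.47 to 24.5% in bleomycin Sdc1-/-. All groups overlapped (bleomycin minus normal -2.90 points, exact permutation p = 0.26, adjusted 0.389). Its share was higher by 4.97 points in Sdc1-/- than in wild type (exact permutation p = 0.0661, adjusted 0.132) and by 6.12 points without normal Sdc1-/- library 2 (exact permutation p = 0.0245, adjusted 0.0735). miR-205-3p had 103 reads in all, with a bleomycin difference of -0.0206 points (exact permutation p = 0.639). miR-375-5p had 0 reads in all 16 libraries, beside 1378 to 32762 reads of miR-375-3p.

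**Figure D5:**
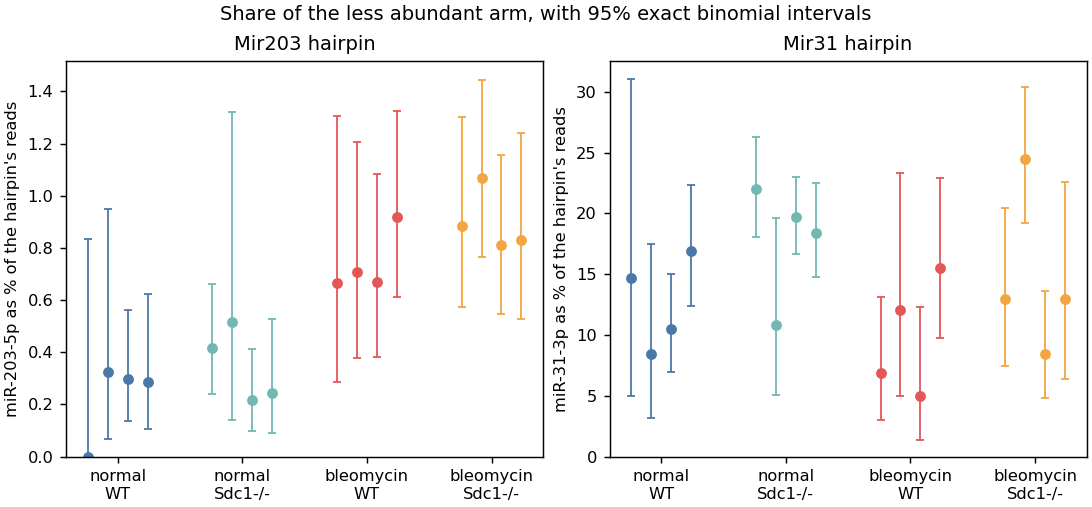
Share of the Mir203 and Mir31 hairpins' reads that came from the less abundant arm, in percent, 1 point per library, by group, with exact binomial 95% intervals that cover counting error only. For Mir203 the 8 bleomycin libraries, at 0.665 to 1.07%, lie above the 8 normal libraries, at 0 to 0.517%.

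The miRNAs whose levels followed each of the 4 most closely over the 16 libraries are given as a description, by Pearson's r of log2(CPM + 5), which also carries shared depth and group. miR-205-5p was most like miR-34b-3p of ciliated cells (r = 0.96), miR-484 (0.95) and miR-34c-3p (0.94). miR-375-3p was most like miR-92b-3p (0.99), miR-92a-3p (0.99) and miR-34b-3p (0.98). miR-205-5p and miR-375-3p were alike at r = 0.93, and at 0.87 after the group means were removed.

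miR-203-3p was most like miR-20a-5p (0.95) and miR-93-5p (0.94), both of the miR-17 seed family of proliferating cells, and miR-193b-3p (0.93). Its r with miR-205-5p was -0.15 over all libraries but 0.85 within groups, while the group means moved apart. Libraries high in one were high in the other in each group except normal Sdc1-/-. There library 2 had the most miR-205-5p (2227 CPM) but less miR-203-3p (279 CPM) than libraries 1 and 3 (330 and 321 CPM). miR-31-5p had no close companion, the nearest being miR-342-3p (0.75), miR-16-5p (0.70) and miR-3074-5p (0.69).

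Other epithelial miRNAs did not move as 1 group. In the miR-200 family, 2 of 5 fell after bleomycin in wild type, miR-200a-3p by 2.68 (limma adjusted p = 0.000748) and miR-141-3p by 2.06 (limma adjusted p = 0.000379), and 1 of 5 in Sdc1-/-, miR-141-3p by 1.39 (limma adjusted p = 0.00994). Of all tested miRNAs 14.5% and 8.62% passed as lower. The family's medians were -0.43 and 0.22, beside -0.00 and 0.11 for all tested miRNAs. miR-200a-3p and miR-141-3p share a seed that differs by 1 base from that of the other 3.

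Of the ciliated-cell miRNAs, 3 of 5 tested fell in wild type and 0 in Sdc1-/-, with medians of -1.64 and -0.85. Among all tested miRNAs 14.5% and 8.62% passed as lower. All 3 were arms of miR-34b and miR-34c, counted as separate members. miR-449a-5p did not pass, at -0.93 in wild type (limma adjusted p = 0.214) and 0.65 in Sdc1-/- (limma adjusted p = 0.4225). miR-34b-3p fell by 3.51 (limma adjusted p = 0.00195), the lowest of all 325, and by 2.34 without the 3 normal libraries with fewest reads (limma adjusted p = 0.0406). It differed by -4.20 without bleomycin wild-type library 3. miR-34c-5p and miR-34c-3p fell by 1.64 and 2.20 and did not pass without those 3 libraries (limma adjusted p = 0.112 and 0.175), nor without single libraries such as normal wild-type 1 (0.0529 and 0.0612).

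In the miR-183 cluster of sensory and airway epithelium, 2 of 3 members passed as higher in each genotype, where 20% and 14.8% of all tested miRNAs did, and the medians were 1.19 and 1.43. miR-96-5p did not pass in wild type (0.54, limma adjusted p = 0.308) or in Sdc1-/- (0.65, limma adjusted p = 0.242). miR-182-5p rose by 1.51 in wild type (limma adjusted p = 0.0112) and miR-183-5p by 1.19 (limma adjusted p = 0.0233). Without the 3 normal libraries miR-182-5p was at limma adjusted p = 0.0713, and miR-183-5p lost its call without normal wild-type library 2 or 4 or bleomycin wild-type library 2 or 3 (limma adjusted p = 0.0526 to 0.0663).

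Of the 5 neuroendocrine and neuronal miRNAs, 3 were tested. All 3 passed as higher in wild type and 2 of 3 in Sdc1-/-, with medians of 1.62 and 1.19. Of all tested miRNAs 20% and 14.8% passed as higher. miR-9-5p, at most 1.77 and 4.05 CPM in normal wild type and Sdc1-/-, was tested only through its injured libraries. miR-7b-5p, at most 16.4 and 4.52 CPM there, also needed its injured libraries to be tested. The filter thus favoured a rise in both, and their calls cannot be weighed against those percentages. miR-7b-5p rose by 2.67 in wild type (limma adjusted p = 9.58e-05) and 3.92 in Sdc1-/- (limma adjusted p = 4.36e-06), and miR-9-5p by 1.62 (limma adjusted p = 9.96e-05) and 1.19 (limma adjusted p = 0.00204). miR-7a-5p rose by 0.97 in wild type (limma adjusted p = 0.0469), a call lost in 13 of 16 fits without 1 library (limma adjusted p = 0.0522 to 0.143). miR-153-3p, the fifth on the list beside the absent miR-124-3p, was below the level needed for the test.

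Markers of other sources also moved, and their part in the results above was not tested. In wild type after bleomycin, 3 of 5 mesenchymal miRNAs passed as higher, 2 of 5 leukocyte miRNAs as higher and 1 as lower, 1 of 2 tested red cell miRNAs as higher and 1 of 2 endothelial miRNAs as higher, while 0 of 3 muscle miRNAs and 0 of 1 liver miRNA passed; of all tested miRNAs 20% passed as higher and 14.5% as lower. In Sdc1-/- the counts higher were 1 mesenchymal, 3 leukocyte and 1 red cell, with 0 endothelial, muscle or liver, beside 14.8% of all tested miRNAs. miR-143-3p and miR-145a-5p, also mesenchymal, went the other way without passing. In wild type and Sdc1-/- miR-143-3p differed by -0.54 and -0.71, and miR-145a-5p by -0.78 and -1.21. The median summed mesenchymal level was 50718 CPM in normal and 43191 after bleomycin in wild type, and 60628 and 39658 in Sdc1-/-. Leukocyte miR-142a-3p, at most 7.31 and 5.45 CPM in normal libraries, was tested only through its injured ones. Several calls of these other sources were lost without 1 library. In wild type that held for miR-451a of red cells without any of 6 libraries, normal 1, 2 or 4 or bleomycin 2, 3 or 4 (limma adjusted p = 0.0573 to 0.122). It also held for endothelial miR-126a-3p without normal 1 or 2 or bleomycin 1 or 4 (limma adjusted p = 0.0704 to 0.0773). Among leukocyte miRNAs, miR-150-5p was lost without normal 1 or 4 or bleomycin 3 (limma adjusted p = 0.0548 to 0.0666) and miR-155-5p without normal 4 (limma adjusted p = 0.057). In Sdc1-/- miR-451a was lost without normal 3 or bleomycin 4 (limma adjusted p = 0.0663 and 0.0684). The summed leukocyte level was 197 to 393 CPM in normal wild type, 128 to 281 in normal Sdc1-/-, 179 to 833 in bleomycin wild type and 224 to 522 in bleomycin Sdc1-/-.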

How the data were processed

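The authors deposited 1 table of CPM for mature mouse miRNAs, a count per 1000000 miRNA reads in each of the 16 columns. Bowtie2 2.2.3 and GRCh38, a human build, are named in the submitters' processing notes, with no role given. No source used here gives the adapter trimming, the read counter or the miRNA annotation. The deposited CPM were whole multiples of 1 read in 100% of values (within 0.001), so whole reads were recovered, at 1094908 to 12837837 per library. Where no read was seen, 3 reads (0.234 to 2.74 CPM) remain possible, for counting error only.

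A miRNA was tested when 4 or more libraries held at least 10 CPM of it, which 325 did, with limma 3.58.1 (R 4.3.3, trend) on log2(CPM + 5) over 16 libraries, with Benjamini-Hochberg adjustment in each of 5 comparisons. Fold changes on this scale understate changes of low miRNAs. edgeR 4.0.16 and DESeq2 1.42.0 were run on the recovered reads as alternatives. The code was tested on simulated data. Ratios and arm shares were tested by exact permutation of libraries. Named besides the 4 miRNAs are their other arms, the 3 most alike miRNAs each, and members of lists with the smallest p. The miRNAs and lists were chosen with earlier results of these data known. miR-203b was not analysed here.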

Additional observations from a re-analysis of the deposited data

Results flagged for a closer look

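In 28 groups of 4 values examined, 2 held a library far from the other 3, and chance flags about 1 in 20 such groups. In normal wild type the share of miR-203-5p in its hairpin's reads was 0% in library 1 (0 of 441 reads) against 0.287 to 0.326% in the other 3, a gap that was 0.881 of the group's range. In bleomycin wild type the same share was 0.918% in library 4 against 0.665 to 0.708%, a gap of 0.831 of the range. The exact binomial 95% intervals of these libraries were 0 to 0.833% and 0.611 to 1.32%. Each covers the shares of the other 3 libraries of its group, so counting error alone could give either gap.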

How the results depend on the processing

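Without the 3 normal libraries with fewest reads, calls in wild type after bleomycin were lost for miR-205-5p (-2.67) and miR-375-3p (-1.79), and in Sdc1-/- for miR-203-3p (1.15). In the same setting the genotype difference of miR-203-3p in normal lung turned to 0.093, the ratio of miR-205-5p to miR-375-3p passed (-0.99), and that of miR-375-3p to miR-31-5p did not (-1.05). With no filter on low values, miR-375-3p in wild type (-3.12, limma adjusted p = 0.0692) and miR-203-3p in Sdc1-/- (1.17, limma adjusted p = 0.0998) did not pass, with more miRNAs tested. miR-203-3p passed in wild type with median-of-ratios scaling (0.71), without miR-21a-5p in the total (1.07), in edgeR (0.77) and in DESeq2 (0.73). miR-205-5p passed in Sdc1-/- with median-of-ratios scaling (-2.35), with only the 8 libraries compared (-2.20), in edgeR (-2.30), in DESeq2 (-2.50) and with log2 reads as covariate (-2.96). miR-375-3p passed there in DESeq2 (-2.38) and with log2 reads as covariate (-2.53). Differences that turned were those of miR-31-5p without miR-21a-5p in the total (0.18 in wild type, 0.061 in Sdc1-/-) and between genotypes after bleomycin in DESeq2 (-0.0046), and, with log2 reads as covariate, miR-203-3p in normal lung (0.10) and miR-375-3p after bleomycin (0.023) between genotypes. The cause was not tested.

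Counts of called miRNAs moved too, but the number tested moved with the setting, so a changed count need not be a changed share. The main fit tested 325 miRNAs, the filter of 100 CPM 174, no filter 1358, and the fit without the 3 normal libraries 308. Without miR-21a-5p in the total 336 were tested. In wild type after bleomycin 37 were higher and 23 lower with a filter of 100 CPM, which miR-31-5p did not pass, 42 and 26 without the 3 normal libraries, 31 lower with no filter and 74 lower in DESeq2. In Sdc1-/- 23 were higher and 15 lower with the filter of 100 CPM, 78 higher without miR-21a-5p in the total, and 75 lower in DESeq2 and 60 with log2 reads as covariate. Between genotypes DESeq2 called 4 higher and 4 lower in normal lung and 6 and 5 after bleomycin. After bleomycin 0 were higher with a pseudocount of 1, a filter of 100 CPM, only the 8 libraries compared, the replicate block or edgeR, and 4 with no filter. The interaction had 2 higher without miR-21a-5p in the total, in DESeq2 and with log2 reads as covariate.

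With 1 library left out at a time, bleomycin differences in wild type ran from -3.94 to -2.53 for miR-375-3p, -4.47 to -2.84 for miR-205-5p, 0.37 to 1.04 for miR-203-3p and -0.30 to 0.018 for miR-31-5p. In Sdc1-/- they ran from -2.65 to -1.66 for miR-205-5p and 1.07 to 1.33 for miR-203-3p. Genotype differences ran from -2.91 to -1.56 for miR-375-3p in normal lung, and after bleomycin from -1.06 to 0.35 for miR-375-3p, -1.35 to 0.28 for miR-205-5p, -0.0068 to 0.66 for miR-203-3p and -0.021 to 0.34 for miR-31-5p. The interaction of miR-31-5p ran from -0.31 to 0.050. The genotype difference in the share of miR-205-3p ran from -0.0135 to 0.0356 points. Counts in wild type ran from 23 to 73 lower. Between genotypes in normal lung they ran from 0 to 38 higher and 0 to 25 lower, the highest being without Sdc1-/- library 2. They ran from 0 to 3 higher after bleomycin and 0 to 2 higher for the interaction.

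Libraries with the same replicate number did not deviate together (r from -0.58 to 0.80, over 0.1 in 7 of 16 pairs, own number best in 4 of 16). With the replicate block miR-203-3p in Sdc1-/- was 1.17 (limma adjusted p = 0.0504), and the ratio of miR-375-3p to miR-31-5p was -2.12 (exact permutation, adjusted p = 0.102); calls numbered 105 and 72 in the bleomycin comparisons. Alternatives for the arm shares were added after seeing the data. Depth limits miR-31-5p (from 29 reads) and the minor arms most.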
